A study of Mus musculus with 7 samples.

Results

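The collagens, laminins and matrix glycoproteins of E10.5 mouse embryos (E, embryonic day) were examined on 7 oligonucleotide arrays, each of which held 1 whole embryo. Members were all probe sets (groups of short probes against 1 transcript) whose annotated symbol is that of a collagen chain, of a laminin chain, or of Fn1, Nid1, Nid2, Hspg2, Sparc, Fbn1, Fbn2, Vcan, Tnc, Eln, Plod1, Plod2 or Lox. They were 96 of the 22626 probe sets on the array that are not array controls, and belonged to 58 genes. No probe set carried the symbol Fbn1. All embryos were of the inbred FVB strain. There were 2 control embryos from 1 untreated dam, 3 diabetes-exposed embryos without a neural tube defect (NTD) and 2 diabetes-exposed embryos with NTD, and the 5 exposed embryos came from 1 dam made diabetic with streptozotocin, a toxin of the insulin-producing cells. Diabetes and litter therefore cannot be told apart, and the p-values measure only the spread between these littermates.

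Collagens are trimers of alpha chains. The fibrillar collagens (types I, II, III, V and XI) make the banded fibrils of connective tissue and cartilage, while type IV collagen forms the network of basement membranes, the sheets under epithelia and around vessels, muscle and the neural tube. Laminins, trimers of an alpha, a beta and a gamma chain, form the other network of these sheets, and nidogens and perlecan bind both networks together. Before they leave the cell, collagen chains are hydroxylated on proline and lysine, and lysyl oxidase cross-links them outside it. The matrix of the early embryo is rich in fibronectin and versican, on which cells of the mesoderm and the neural crest migrate.

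The sequences before the transcription start are shown for 3 genes whose exposed and control embryos did not overlap in signal, those of smallest p that have an entry on the promoter list used here. They were chosen from their values. They are the 250 bases before the start in the RefSeq annotation of mouse build GRCm38.p6, written 5′ to 3′ on the strand of the gene, all of them the minus strand. Plod1, a lysyl hydroxylase, lies at chr4:147936777-147937026, Col4a6, a chain of type IV collagen, at chrX:141474077-141474326, and the first of 2 listed starts of Tnc, the glycoprotein tenascin C, at chr4:64047016-64047265. Capitals mark matches, on either strand, to 3 motifs that do not overlap in letters, the GC box GGGCGG, the TATA box TATAAA and the core of the hypoxia response element ACGTG.
Plod1: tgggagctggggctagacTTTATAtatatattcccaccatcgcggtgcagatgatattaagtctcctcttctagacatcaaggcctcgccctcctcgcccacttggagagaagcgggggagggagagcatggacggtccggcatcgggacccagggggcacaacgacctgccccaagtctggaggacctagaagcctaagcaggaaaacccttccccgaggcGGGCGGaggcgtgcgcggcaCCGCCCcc
Col4a6: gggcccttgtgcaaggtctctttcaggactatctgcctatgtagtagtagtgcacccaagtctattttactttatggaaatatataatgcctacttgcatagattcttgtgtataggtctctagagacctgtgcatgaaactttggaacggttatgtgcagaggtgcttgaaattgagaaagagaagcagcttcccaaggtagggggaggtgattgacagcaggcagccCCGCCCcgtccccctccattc
Tnc: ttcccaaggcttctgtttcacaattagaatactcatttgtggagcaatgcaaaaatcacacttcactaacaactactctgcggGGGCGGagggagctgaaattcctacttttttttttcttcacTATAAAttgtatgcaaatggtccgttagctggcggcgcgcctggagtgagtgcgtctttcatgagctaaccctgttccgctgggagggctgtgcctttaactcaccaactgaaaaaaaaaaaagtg
Plod1 held 2 GC boxes, 28 and 8 bases before the start, and 1 TATA box at 232 bases. Col4a6 held a GC box at 21 bases. Tnc held a GC box at 167 bases and a TATA box at 126 bases, and the hypoxia core was in none of the 3 windows. Of the 58 genes, 38 had a window. A GC box was found in 22 of them (57.9%) against 32.9% of all 27025 windows, a TATA box in 7 (18.4%) against 13.0%, and the hypoxia core in 4 (10.5%) against 16.6%. The median GC content was 60.4% in the members' windows and 52.0% in all. Col4a1 and Col4a2, the 2 chains of the common form of type IV collagen, start on opposite strands so close together that their windows of promoter and first bases overlap by 78 bases, at chr8:11312777-11312854. A match of letters is not a measured site of binding.

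The deposited values were MAS5 signals, linear intensities that the authors scaled to 1 level, so that the trimmed mean was 500.2 on every array. Precision is limited by how many arrays there are. Median signals were 206 to 218. Tests on the log2 scale with limma took in the 14554 probe sets that reached their array's 40th percentile (a signal of 131 to 146) on 2 arrays or more, and calls were made where the p adjusted by Benjamini-Hochberg over all of them was under 0.05. Of the members, 68 probe sets of 46 genes passed this filter, 56 of them on all 7 arrays. Col4a3 and Col5a3 passed only through exposed embryos, so that their difference is in part a result of the filter. The other 28 member probe sets had signals of 0.364 to 182, and 12 genes had no tested probe set, among them the cartilage collagens Col9a2, Col9a3 and Col10a1, the epithelial collagen Col17a1 and the laminin chains Lama3, Lamb2 and Lamb3. Exposed embryo 1 without NTD stood apart. Its summed signal of 7 tested markers of yolk sac endoderm and liver was 18584, against 1477 to 3977 in the other 6 embryos. Sex also went largely with exposure. Both controls and exposed embryo 2 with NTD had signals of 12.7 to 24.1 on 1 probe set of Xist, which coats an X chromosome that is silenced, and signals of 203 to 245 for the Y-linked Eif2s3y, while the other 4 exposed embryos had 1830.2 to 3287 and 0.549 to 2.76. The part of sex in the values of any member was not tested.

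No matrix probe set was called between exposed and control embryos, where 0.172% of all tested probe sets were (25 of 14554). The lowest adjusted p among the members was 0.161. At an unadjusted p under 0.05, 11 of the 68 members (16.2%) were higher in the exposed embryos, against 7.63% of all probe sets, and 3 (4.41%) were lower, against 8.52%. Each control bore on these counts. With either control left out, both counts of members were smaller, and so were both shares over all probe sets. The median log2 difference of the members was then 0.02 without control 1 (-0.02 over all probe sets) and 0.06 without control 2 (0.00 over all). All 5 exposed embryos lay above both controls for 11 members, against 11.4% of all probe sets, and below both for 6, against 13.4%. Of the members counted as higher, 10 by p and 9 by lack of overlap also reached the 40th percentile in a control, a condition that was not set for the shares over all probe sets. Together these were 25% of the members and 24.7% of all probe sets, so that groups without overlap were no more frequent among the matrix genes than on the array. The methods' t-test was also run, without adjustment and with a fold-change of mean signals beyond 1.5, and 2 members passed, 1 probe set each of Col1a1 and Nid1, against 4.52% of all probe sets. The methods state a false discovery rate for it and a second test that was not run here. After Benjamini-Hochberg adjustment 0 members passed, as did 0 of all 14554 probe sets, so that this count is not particular to the members.

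The median log2 difference, exposed minus control, was 0.05 over the members and 0.00 over all probe sets, and 40 of the 68 members were positive (58.8%, against 50.1%). From the 5th to the 95th percentile, the differences of all probe sets ran from -0.56 to 0.51. The medians by role rest on few probe sets, some of them of the same gene, and their differences from each other were not tested. All 11 probe sets of basement membrane collagens and all 4 of the cross-linking enzymes had positive differences, with medians of 0.21 and 0.34. The cross-linking class held the lysyl hydroxylases Plod1 and Plod2 beside Lox. Among the 11 were Col4a3, which passed the filter only through exposed embryos, and a probe set of Col4a5 at 0.00. With the filter met on all 7 arrays, which leaves out Col4a3, 10 of 10 were positive, with a median of 0.18. Laminins had a median of 0.11, fibrillar collagens of -0.03, other collagens of -0.01, nidogens and perlecan of -0.10, and the group of fibronectin, SPARC, tenascin and versican of -0.13. Without exposed embryo 1 without NTD, 8 of the 11 basement membrane collagens and 3 of the 4 cross-linking enzymes were positive, with medians of 0.15 and 0.24. Of the 11 basement membrane collagens, 9 were positive without control 1, and also 9 without exposed embryo 2 with NTD. Of 19 genes with several tested probe sets, 9 had only positive differences, 6 only negative ones, and Col5a1, Col6a2, Fn1 and Lamb1 had both signs.

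The class of cross-linking enzymes held the smallest p of the members, that of a lysyl hydroxylase and not of the lysyl oxidase Lox. Plod1, which hydroxylates lysines of collagen chains, gave 411 in control 1 and 421 in control 2. In the exposed embryos 1 to 3 without NTD it gave 694, 552 and 546, and with NTD 521 (embryo 1) and 598 (embryo 2). Every exposed embryo lay above both controls, and the controls differed little from each other. The mean was 582 ± 68.6 (SD, n = 5) against 416 ± 6.70 (SD, n = 2), a log2 difference of 0.48 ± 0.14 (SE), with a limma adjusted p of 0.161. A two-sided exact permutation test gave p = 0.048, the smallest that 2 against 5 embryos allow. Plod1 was picked by its limma p from these same values. The permutation test gave the same p for 1 probe set each of Col4a3, Col4a6, Col5a3, Col11a2, Hspg2, Lama4, Lamc1, Tnc and Vcan. Col4a3 and Col5a3 had passed the filter only through exposed embryos. The share of all probe sets at this p was not tabulated, so that the list cannot be set against the array. Plod2, the lysyl hydroxylase of telopeptide lysines, had 2 probe sets. One gave 672 and 816 in the controls, 1101, 969.8 and 1117 in the exposed embryos without NTD and 809 and 1109.8 in those with NTD, so that exposed embryo 1 with NTD lay between the controls (log2 difference 0.45 ± 0.16, adjusted p = 0.207). The brighter one gave 1007 and 795, then 1672, 972 and 967, then 818 and 998 (0.23 ± 0.24, adjusted p = 0.665), and only exposed embryo 1 without NTD stood above both controls there. Lox, the lysyl oxidase that starts the cross-links, gave 229 and 249, then 359, 235 and 278, then 203 and 228, a difference of 0.10 ± 0.22 with overlapping groups.

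Among basement membrane collagens the largest difference was that of Col4a3, a chain of the type IV network best known from the kidney glomerulus. Its signals were low, 57.9 and 81.8 in the controls, 157, 131 and 138 in the exposed embryos without NTD and 94.5 and 145 in those with NTD. Exposed embryos were all above both controls, by 0.93 ± 0.31 on the log2 scale (adjusted p = 0.185), but neither control reached the 40th percentile of its array. Col4a6, a chain of the network under smooth muscle and some epithelia, also had no overlap, with 239 and 275 in the controls, 392, 311 and 341 in exposed embryos without NTD and 314 and 348 in those with NTD (0.41 ± 0.15, adjusted p = 0.232). Col4a6 and Col4a5 are neighbours on the X chromosome. In exposed embryo 2 with NTD, the exposed embryo with low Xist, Col4a6 was at 348. This is 1 embryo, and the part of sex in the difference of Col4a6 was not tested.

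Col4a1 and Col4a2, which make up the type IV trimer of most basement membranes, differed less. The brighter probe set of Col4a1 gave 2764 and 2753 in the controls, 3831, 3245 and 3212 in the exposed embryos without NTD and 2699.6 and 3117 in those with NTD. All but exposed embryo 1 with NTD were above the controls, and the difference was 0.21 ± 0.13 (adjusted p = 0.449), with 0.15 ± 0.22 on the dimmer probe set. Col4a2 gave 1279 and 1259, then 1531, 1321 and 1659.5, then 1365 and 1510.3, with no overlap, and also a difference of 0.21 ± 0.13 (adjusted p = 0.425). Col4a5 was near 0 on both probe sets (0.00 and 0.10), as was the brighter probe set of Col18a1 (0.02 ± 0.11), whose product carries the endostatin domain, and Col15a1 (0.07). The second probe set of Col18a1 had 0.27 ± 0.14 and Col7a1, the anchoring fibril collagen of skin, 0.26 ± 0.19.

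Of the tested laminin chains, gamma 1 and alpha 5 were above the controls in every exposed embryo and alpha 4 below them. Lamb3, too dim to be tested, gave 17.9 and 15.8 in the controls and 61.2 to 131 in the exposed embryos, under the 40th percentile on every array. Lamc1, the gamma chain of most laminins, gave 592 and 509.8 in the controls, 773, 653 and 880.5 in exposed embryos without NTD and 684 and 737 in those with NTD. Its mean was 746 ± 88.4 (SD, n = 5) against 551 ± 58.2 (SD, n = 2), a log2 difference of 0.43 ± 0.15 (adjusted p = 0.195). Lama5, the alpha chain that follows Lama1 in the basement membranes of many epithelia, had differences of 0.61 ± 0.27 and 0.70 ± 0.28 on its 2 probe sets (adjusted p = 0.302 and 0.257). The brighter gave 355 and 438, then 584, 459.5 and 1046, then 543 and 517, so that exposed embryo 3 without NTD was far above the rest, and the other was highest in exposed embryo 1 without NTD (323, against 157 to 217 in the other exposed embryos and 146 and 109 in the controls).

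Lama4, the alpha chain of vessel walls, gave 302 and 283 in the controls and 198 to 264 in the exposed embryos (-0.39 ± 0.18, adjusted p = 0.316). Lama1, the main alpha chain of the early embryo, gave 345 and 322, then 518, 368 and 469, then 356 and 340.5, with a difference of 0.28 ± 0.19 and 1 exposed embryo with NTD between the controls. The 3 probe sets of Lamb1, the beta chain that pairs with Lamc1, ran from -0.37 to 0.16. Lama2 (-0.15) and Lamc3 (0.05) had overlapping groups.

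Perlecan and nidogen 1 were the members of this class with the largest differences, in opposite directions, and both depended on the probe set or the embryo. The brighter probe set of Hspg2, the perlecan core protein, gave 568 and 1176 in the controls, 1368, 1164 and 1426 in exposed embryos without NTD and 1281 and 1178 in those with NTD. Control 1 alone set the difference of 0.65 ± 0.23 (adjusted p = 0.208), which was 0.12 without it. The second probe set gave 219 and 179 in the controls and 237 to 296 in the exposed embryos, with no overlap (0.42 ± 0.17, adjusted p = 0.250). Nid1, which links laminin to type IV collagen, had 1 probe set with 359.5 and 372 in the controls, 266, 95.9 and 136 in exposed embryos without NTD and 312 and 201 in those with NTD, a difference of -0.98 ± 0.39 (adjusted p = 0.251). The exposed embryos varied from 95.9 to 312 among themselves there, and the brighter probe set of the same gene had a difference of only -0.10 ± 0.15. Nid2 was at -0.13 ± 0.15.

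The fibrillar collagens were spread around 0, with 8 of 16 probe sets positive. Type I collagen, of skin, bone and most connective tissue, was measured with 4 probe sets. One of Col1a1 gave 381 and 325 in the controls, 1265, 551 and 1172 in the exposed embryos without NTD and 606 and 420.0 in those with NTD. All exposed embryos were above both controls and the difference was the largest of the tested members, 1.05 ± 0.38 (adjusted p = 0.216), carried mostly by exposed embryos 1 and 3 without NTD. The brighter probe set of Col1a1 gave 1297 and 1068, then 1973, 1228 and 1495, then 1120.4 and 1030.0, a difference of 0.18 ± 0.23. Col1a2, the partner chain, gave 3094 and 2897, then 5016, 3096 and 3648, then 2964 and 2769 on its brighter probe set (0.19 ± 0.20) and 0.01 on the other.

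Col3a1, the collagen of distensible tissue that assembles with type I, had differences of -0.07 and -0.13, and Col5a2, which sets fibril diameter, of -0.08 and -0.10. Col2a1, the collagen of cartilage and notochord, gave 1685 and 1609.5 in the controls, 2315, 1626 and 2254 in exposed embryos without NTD and 1744 and 1949.8 in those with NTD (0.25 ± 0.15, adjusted p = 0.447), with exposed embryo 2 without NTD between the controls. The type XI chains went apart. Col11a2 gave 119 and 177 in the controls and 194 to 230.4 in the exposed embryos (0.53 ± 0.20, adjusted p = 0.241), while Col11a1 gave 197 and 158 against 107 to 154 on its dimmer probe set (-0.45 ± 0.24, adjusted p = 0.381) and -0.14 ± 0.17 on the brighter. Col5a3, also without overlap, was at 0.49 ± 0.24. Among the other collagens no probe set separated the groups, 5 of 12 were positive, and the smallest p was that of Col26a1 (-0.19 ± 0.15, adjusted p = 0.548). The chains of type VI collagen, which forms beaded filaments around cells, had differences of -0.20 (Col6a1) to 0.02. Col9a1, a chain of the type IX collagen of cartilage, was at -0.15 ± 0.12 and -0.15 ± 0.15 on its 2 probe sets.

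Tenascin C and versican had lower signals in the exposed embryos and SPARC was high in 2 of them. Tnc, a matrix glycoprotein of migrating and remodelling tissue, gave 226 and 254 in the controls, 162, 172 and 172 in exposed embryos without NTD and 143 and 163 in those with NTD. The 5 exposed embryos were close together and all below both controls, with means of 162 ± 12 (SD, n = 5) and 240.0 ± 19.9 (SD, n = 2), a log2 difference of -0.56 ± 0.18 (adjusted p = 0.179). Vcan, the large proteoglycan of loose embryonic matrix, gave 2398 and 2313 in the controls and 1869 to 2109 in the exposed embryos (-0.25 ± 0.11, adjusted p = 0.297). A second probe set of Vcan also had no overlap (-0.31 ± 0.14), and the third, at -0.14 ± 0.33, had controls of 281 and 739.

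Sparc, a collagen-binding glycoprotein of basement membranes, gave 1892 and 1780.1 in the controls, 3786, 2018 and 2829 in exposed embryos without NTD and 1882 and 2012 in those with NTD. Exposed embryos 1 and 3 without NTD were well above the rest, as they were for Col1a1, and the differences of its 2 probe sets were 0.40 ± 0.24 and 0.32 ± 0.24. Fn1 differed by -0.13 ± 0.12 and 0.10 ± 0.18 on its 2 probe sets, with fibronectin signals on the brighter of 5688 and 5444 in the controls and 4484 to 5788 in the exposed embryos. Of the elastic fibre proteins, Fbn2, the fibrillin of fetal tissue, was at -0.12 ± 0.13, and Eln, the elastin gene, at 0.05 ± 0.24 with controls of 242 and 409.

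The exposed embryos differed among themselves. The median log2 signal of the 68 members minus the mean of the controls was 0.14, 0.02 and 0.20 without NTD (embryos 1 to 3) and -0.06 and -0.03 with NTD (embryos 1 to 2), while that of all probe sets stayed between -0.01 and 0.01. Exposed embryo 1 without NTD had the highest signal of the 7 for 30 members (44.1%, against 23.2% of all probe sets), and exposed embryo 3 for 14 (20.6%, against 16.9%). For the basement membrane collagens these medians were 0.42, 0.06 and 0.34 without NTD and -0.03 and 0.18 with NTD, and for the laminins 0.45, 0.15 and 0.25 without NTD and 0.07 and -0.08 with NTD. The cross-linking enzymes stood at 0.66, 0.25 and 0.31 without NTD and at 0.00 and 0.34 with NTD. The fibrillar collagens were at 0.18, 0.04 and 0.20, then -0.03 and -0.07, so that these roles were each higher in exposed embryos 1 and 3 without NTD than in exposed embryo 2 without NTD. The group of fibronectin, SPARC, tenascin and versican ran otherwise, at -0.20, -0.32 and 0.13, then -0.17 and -0.09.

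Exposed embryos with NTD were then compared with those without NTD, to ask whether matrix transcripts went with the defect. No member was called, and neither was any other probe set (0% of 14554). At an unadjusted p under 0.05, 6 members were lower in the embryos with NTD (8.82%, against 1.38% of all probe sets) and 0 were higher, against 1.64%. Both embryos with NTD lay below the other 3 exposed embryos for 13 members (19.1%, against 8.49%) and above them for 1 member (1.47%, against 7.58%), which was a probe set of Col5a2. The median difference was -0.14 over the members and 0.00 over all probe sets, and 50 of 68 members were negative (73.5%, against 50.3%). By role it was -0.33 for laminins, -0.26 for cross-linking enzymes, -0.14 for both fibrillar and basement membrane collagens, -0.11 for other collagens and 0.00 for nidogens and perlecan.

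The 6 were both probe sets of Col1a1, 1 each of Col1a2, Col4a1 and Sparc, and that of Col6a1. The dimmer probe set of Col1a1, with 606 and 420.0 against 1265, 551 and 1172, differed by -0.89 ± 0.33, though its groups overlapped. On the brighter one, with 1120.4 and 1030.0 against 1973, 1228 and 1495, both embryos with NTD were below the other 3 (-0.52 ± 0.20), as they were for Col1a2 (-0.42 ± 0.19). The dimmer probe set of Col4a1 gave 1261 in both embryos with NTD, against 2157, 1335 and 1846 (-0.47 ± 0.20). Each of these had a limma adjusted p of 0.999. With 2 against 3 embryos an exact permutation test cannot give a p below 0.1.

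Single embryos moved these counts. Without exposed embryo 1 without NTD, 46 of 68 members were negative, against 49.9% of all probe sets, with a median of -0.08, and 0 were lower and 1 was higher at an unadjusted p under 0.05. Without exposed embryo 3 without NTD, 45 were negative (against 49.3%), with a median of -0.12, and 1 was lower. Without exposed embryo 2 without NTD, by contrast, 51 were negative (against 52.4%) and 12 were lower. Leaving out exposed embryo 1 with NTD gave 39 negative (against 48.7%) and leaving out exposed embryo 2 with NTD gave 53 (against 51.3%). The shares of all probe sets with an unadjusted p under 0.05 were not computed with an embryo left out. The counts of members at that p therefore cannot be set against the array here. Set against the controls, the median of the members was 0.09 in the embryos without NTD and -0.04 in those with NTD, and neither contrast called a member. Of all 14554 probe sets, 43 were called without NTD against controls and 0 with NTD against controls. These 2 contrasts share the controls.

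Markers of other tissues moved with some of these values. The labelled tissue was the whole embryo, and the tested markers of heart muscle, neural cells, mesenchyme, endothelium and red cells were all present. In whole embryos, fewer cells of a type and less RNA per cell cannot be told apart. The summed signal of 11 tested markers of parietal endoderm, the extraembryonic layer that secretes a thick basement membrane rich in type IV collagen and laminin, was 4047 and 3839 in the controls, 6731, 5462 and 4936 in the exposed embryos without NTD and 4851 and 4848 in those with NTD. Of its 16 tested probe sets, 7 were above both controls in all exposed embryos, against 11.4% of all probe sets, and 0 below, against 13.4%, and these included keratins that other epithelia also make. Differences were negative for 5 of the 16. The sum over 11 endothelial genes was 4229 and 4412 in the controls, 5357, 4522 and 5428 without NTD and 4176 and 4318 with NTD, highest in the same 2 embryos as Sparc and Col1a1. Their 15 probe sets had a median difference of 0.02, exposed minus control, and 7 were negative. Red cell markers (6 genes) summed to 52067 and 54326 in the controls and 64486 to 83688 in the exposed embryos, and neural markers (8 genes) to 11017 and 10920.0 against 7992 to 9777, with 1 of their 15 probe sets, that of Dcx, called lower. Heart muscle markers (8 genes) summed to 10981 and 10623 in the controls and to 11674 to 13093 in the exposed embryos. Mesenchyme markers (14 genes) summed to 8329 and 8042 in the controls and to 8308 to 9189 in the exposed embryos, but 14 of their 20 probe sets had negative differences, 5 of them with an unadjusted p under 0.05. Of trophoblast and decidua, only Hand1 was tested, which the heart also expresses, at 246 and 268 in the controls and 403 to 543 in the exposed embryos. The part of these tissues in the matrix values was not tested.

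Other matrix genes were taken from 3 further lists, and no gene of them was called. Of the enzymes and chaperones that fold and process collagen, 24 probe sets of 18 genes were tested, with a median of 0.15, 17 positive, 4 higher at an unadjusted p under 0.05 (against 7.63% of all probe sets) and 0 lower (against 8.52%). Serpinh1, the collagen chaperone HSP47, gave 2645 and 2468 in the controls, 3594, 3113 and 4031 in exposed embryos without NTD and 3237 and 3314 in those with NTD (0.43 ± 0.12, adjusted p = 0.142). It separated the groups, as did Plod3, the third lysyl hydroxylase, with 1056 and 960.0 in the controls and 1144 to 1569 in the exposed embryos (0.46 ± 0.15, adjusted p = 0.179). P4ha1 and P4ha2, the catalytic subunits of prolyl hydroxylase, were at 0.81 ± 0.30 and 0.68 ± 0.24, and a second P4ha1 probe set was at -0.22 ± 0.19. The first P4ha1 probe set was highest in exposed embryo 1 without NTD (1529, against 539 to 818 in the other exposed embryos and 488 and 472 in the controls).

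Matrix proteases and their inhibitors (20 probe sets of 12 genes) had a median of -0.01, with 3 higher and 1 lower at an unadjusted p under 0.05, against the same shares of 7.63% and 8.52%. The gelatinases Mmp9 (0.82 ± 0.26) and Mmp2 (0.43 ± 0.14, with 0.00 ± 0.35 on a second probe set), which cleave type IV collagen, and Mmp11 (0.55 ± 0.22) were above both controls in all exposed embryos, and Plat, the tissue plasminogen activator, was below them (-0.40 ± 0.17). Other glycoproteins and proteoglycans (56 probe sets of 38 genes) had a median of -0.04, with 3 higher and 4 lower, against 7.63% and 8.52%. The lowest p was that of Thbs1, thrombospondin 1, with 300.0 and 379 in the controls and 144 to 242 in the exposed embryos (-0.77 ± 0.21, adjusted p = 0.133). Tgfbi, a collagen-binding protein induced by TGF-beta, gave 529 and 567 in the controls and 262 to 453 in the exposed embryos (-0.67 ± 0.19, adjusted p = 0.145).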

How the data were processed

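Each of the 7 one-colour Affymetrix 430A 2.0 arrays held RNA of 1 whole FVB embryo (E10.5). The authors deposited linear intensities, computed and scaled with MAS5 (version not given in the sources used). They were not normalized further. Gene symbols came from the array annotation, which gave 1 symbol to 20393 probe sets, several to 691 and none to 1606, and 64 control probe sets were set aside. Signals below 1 were set to 1 and log2 values of 14554 probe sets entered limma 3.58.1 (R 4.3.3; eBayes with a mean-variance trend). The contrast of NTD within exposed embryos used 3 groups. Exact permutation tests served for single values. limma was tested on simulated data with known changes. The members and all lists were chosen with earlier results of these data known, and support nothing beyond their values.

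Named genes were those of smallest p in each role, the 4 probe sets of largest difference in each direction among groups without overlap, the brightest tested probe set of each gene on a list fixed by name, and the 3 of smallest p in the contrast of NTD. From each further list the 2 of smallest p were named. Other members, and other genes of the further lists, that are given with values were chosen after their values were seen. Alternatives were quantile normalization, median centring, other filters, a floor, an offset, no trend, array weights, a replicate block, the methods' t-test without its second test, 1 value per gene, the exposed embryos without NTD alone, and each embryo left out in turn. Sequences came from RefSeq windows. Python 3.11.15, pandas 2.3.3, NumPy 2.4.6 and Matplotlib 3.10.9 were used.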

Additional observations from a re-analysis of the deposited data

Results flagged for a closer look

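Among the 5 exposed embryos, 3 of the 32 named probe sets had 1 embryo far from the others by Dixon's criterion, which chance meets in about 1 group in 20. Exposed embryo 2 without NTD was low for the brighter probe set of Col3a1, at 4222 against 5022 to 5317 in the other exposed embryos. Exposed embryo 2 with NTD was high for the brighter probe set of Nid1, at 1088 against 787 to 852. Exposed embryo 1 without NTD was high for the brighter probe set of Plod2, at 1672 against 818 to 998, and it was the embryo with high yolk sac and liver markers. Of all 68 tested members, 5 (7.35%) met the criterion.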

How the results depend on the processing

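The count of 0 called members held under every alternative run for either comparison, except that the methods' t-test without adjustment and with a fold beyond 1.5 gave 2. The calls over all probe sets varied more, from 25 to 8 with no filter, 10 with no trend and 491 with array weights, and from 0 to 58 when 1 embryo was left out. The count of members without overlap between groups was 17 of 68, and 11 of 56 when the filter had to be met on all 7 arrays. Under that filter the exposed embryos lay above both controls for 11.9% of all probe sets and below for 13.4%. The main filter gave 11.4% and 13.4%. With 1 embryo left out the count of members was 17 to 31, with 31 and 28 reached without control 1 and control 2. The shares of all probe sets rose there too. They were 18.4% above and 21.2% below without control 1, and 23.4% and 21.2% without control 2. A rise without either control was therefore not particular to the matrix genes. The median difference of exposed minus control was 0.01 with array weights and 0.01 to 0.07 with 1 embryo left out, and that of embryos with minus without NTD -0.18 to -0.08. Of the 32 named probe sets, 26 kept their sign under every alternative and 10 of 540 values had the other sign, among them Eln at -0.33 without control 1 (0.43 without control 2). No named value passed the adjusted threshold, and the lowest adjusted p was 0.063, that of Plod1 with array weights.

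Controls and exposed embryos came from different dams, so that equal numbers mark no shared origin. Deviations from the group means of embryos with the same number had correlations of -0.25 to 0.03. The fit with the replicate block drops exposed embryo 3 without NTD, which alone has its number, and gave 0 called members, a median of 0.01, 18 named probe sets with a positive difference against 19 without the block, and 0 called probe sets in all. The signals limit what can be said of dim members, since 28 probe sets were not tested and 12 of those tested were under the 40th percentile on 1 array or more.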
